A study of Mus musculus with 16 samples.

Results

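The erythroid and megakaryocyte programme was followed as 34 genes, 18 that mark red cells and their precursors and 16 that mark megakaryocytes and platelets, out of 54347 genes in the count table. Members were matched by gene symbol, and all 34 were found. RNA was sequenced from bone marrow LSKs (Lin-Sca-1+c-Kit+ cells, which hold the stem cells and the multipotent progenitors) and GMPs (granulocyte-monocyte progenitors, sorted as Lin-Sca-1-c-Kit+Cd16/32+ cells). Cells came from URE mice, in which the upstream regulatory element of *Spi1*, the gene of the transcription factor PU.1, is deleted, and from WT mice. Animals were littermates on a C57BL/6 background, were 8 to 12 weeks old and carried no other listed allele or treatment. The deletion is not limited to blood cells or to a stage, so both cell types of a URE mouse and their precursors developed without the element. Each group (WT LSK, URE LSK, WT GMP, URE GMP) holds 4 libraries, 1 per mouse, each prepared without strand information from at most 10 ng of RNA. The lineage antibodies that removed mature cells included Ter119, which binds cells of the red lineage from the erythroblast on, and no antibody listed among them recognizes megakaryocytes or platelets.

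Red cells and megakaryocytes descend from a common branch of haematopoiesis that depends on GATA factors, and PU.1 and GATA1 are known to restrain each other. On the red cell side, *Klf1* is the transcription factor that switches on globin, haem and membrane genes, *Epor* is the receptor of erythropoietin, and *Tfrc* takes up iron. On the platelet side, *Nfe2* is the transcription factor required for platelet release, *Itga2b* and *Itgb3* form the fibrinogen receptor, *Gp1ba*, *Gp1bb* and *Gp9* belong to the receptor for von Willebrand factor (*Vwf*), and *Pf4*, *Ppbp*, *Thbs1* and *Selp* are carried in platelet alpha granules. *Itga2b* and *Vwf* are also known in part of the stem cell pool, and *Selp* and *Vwf* in endothelium.

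Of the adult globin genes, the beta pair *Hbb-bt* and *Hbb-bs* and the alpha pair *Hba-a1* and *Hba-a2* are near-identical copies. *Hbb-bt* lies at chr7:103812524-103813996 and *Hbb-bs* at chr7:103826534-103828096 (GRCm38, GENCODE M21), and their coding sequences of 444 bases differ at 1 base. *Hba-a1* lies at chr11:32283511-32284465 and *Hba-a2* at chr11:32296489-32297298, and their coding sequences of 429 bases likewise differ at 1 base. The 41 coding bases around each difference are shown because the split of reads within a pair rests on such positions and on the untranslated ends. The differing base is in capitals, and the sequences are from GENCODE M21.
*Hbb-bt* (chr7:103812663-103812703, minus strand): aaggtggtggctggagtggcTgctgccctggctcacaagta
*Hbb-bs* (chr7:103826672-103826712, minus strand): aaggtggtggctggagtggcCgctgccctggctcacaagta
*Hba-a1* (chr11:32284323-32284363, plus strand): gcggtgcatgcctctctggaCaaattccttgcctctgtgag
*Hba-a2* (chr11:32297140-32297180, plus strand): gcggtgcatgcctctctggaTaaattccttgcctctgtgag
Of the 31-base words in the transcripts of *Hbb-bt*, 59.4% also occur in *Hbb-bs*, and of those of *Hba-a2*, 92.6% also occur in *Hba-a1*. Values of single globin genes are therefore uncertain, and the summed pair is given for each comparison in which a single globin gene was called in edgeR.

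RefSeq promoters, the 250 bases before a transcription start on GRCm38.p6, were at hand for 25 of the 34 members. A GATA motif (the letters AGATAA or those of AGATAG, or else TGATAA or those of TGATAG, on either strand) stood in the promoter of 9 of 13 red cell members and 4 of 12 platelet members, against 26.5% of all 32851 promoters. A CACC box (CCACACCC or CCCACCC, either strand), the kind of site that KLF factors bind, stood in 7 of the 13 and 2 of the 12, against 18.3% of all. The long PU.1 motif AGAGGAAGT stood in none of the 25, against 0.798% of all, and its short form GAGGAAG, which lies within the long one, in 3 of 13 and 4 of 12, against 10.6%. The ETS core CCGGAAG was in none of the 25 (6.91% of all), and the E-box CAGNTG in 10 of 13 and 9 of 12 (44.8% of all). These matches describe letters in a window and not binding.
Promoters of 4 red cell members that were higher in GMPs than in LSKs of both genotypes are printed 5′ to 3′, with GATA, CACC and PU.1 matches of either strand in capitals and without the bases that GENCODE M21 places in an exon.
*Klf1* (chr8:84901732-84901927, plus strand): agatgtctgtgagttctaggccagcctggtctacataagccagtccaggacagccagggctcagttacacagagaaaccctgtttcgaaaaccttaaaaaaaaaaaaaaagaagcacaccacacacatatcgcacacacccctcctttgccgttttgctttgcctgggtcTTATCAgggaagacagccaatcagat
*Ermap* (chr4:119190012-119190245, minus strand): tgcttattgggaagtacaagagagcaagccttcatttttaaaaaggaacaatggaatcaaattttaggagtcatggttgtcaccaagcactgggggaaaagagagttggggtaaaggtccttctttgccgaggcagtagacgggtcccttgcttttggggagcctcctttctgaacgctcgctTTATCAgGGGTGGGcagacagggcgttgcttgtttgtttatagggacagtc
*Rhd* (chr4:134864286-134864535, plus strand): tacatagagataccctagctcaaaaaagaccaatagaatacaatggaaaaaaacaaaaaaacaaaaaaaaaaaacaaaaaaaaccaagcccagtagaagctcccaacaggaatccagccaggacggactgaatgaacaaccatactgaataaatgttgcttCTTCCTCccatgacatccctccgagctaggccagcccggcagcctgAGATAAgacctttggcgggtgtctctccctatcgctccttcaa
*Aqp1* (chr6:55336049-55336298, plus strand): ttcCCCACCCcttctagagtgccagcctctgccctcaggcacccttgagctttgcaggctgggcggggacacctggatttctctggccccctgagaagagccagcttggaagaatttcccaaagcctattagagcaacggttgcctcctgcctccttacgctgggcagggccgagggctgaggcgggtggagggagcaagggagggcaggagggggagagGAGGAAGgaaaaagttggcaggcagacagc
The promoters of *Klf1*, *Ermap* and *Rhd* hold 1 GATA match each and that of *Aqp1* holds none, those of *Ermap* and *Aqp1* hold a CACC match, and those of *Rhd* and *Aqp1* hold the short PU.1 motif.

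Total counts per library lay between 20028300 and 29128900 (to 6 digits), which leaves the member genes with few counts as the less certain. *Spi1* had 69.5–166 CPM (the usual depth-scaled count unit, with library sizes adjusted by TMM in edgeR) in WT LSKs and 1.13–4.44 CPM in URE LSKs (log2 fold change -5.39 ± 0.47 SE, edgeR adjusted p = 0.000266), and 84.8–181 CPM in WT GMPs against 15.6–28.6 CPM in URE GMPs (log2 fold change -2.73 ± 0.30 SE, edgeR adjusted p = 0.00095), so the labels and the targeted gene go together. Of 10 stem and LSK markers, 8 were lower in GMPs than in LSKs of WT (15.8% of all genes) and 9 of URE mice (12.6%). Of 10 GMP and neutrophil markers, 7 were higher in GMPs of WT (11.5% of all genes) and 8 of URE mice (9.2%). Replicate 3 of the URE LSKs stood apart from the other LSK libraries in platelet genes, and fold changes of members in LSKs that moved by more than 1 on the log2 scale without it are given both ways. Replicates of a group are separate mice. Exonic bases of *Alas2*, *Ank1*, *Thbs1*, *Plek* and *Selp* overlap other annotated genes in part, and reads without strand information cannot be told apart there.

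Compared per kilobase of exon, *Car2*, a carbonic anhydrase that is also active outside red cells, had the highest mean level of the 34 members in all 4 groups, from 161 ± 52.9 CPM per kb in WT GMPs to 951 ± 84.9 in URE LSKs (SD, n = 4). *Nfe2* came next in both LSK groups, with 164 ± 9.92 CPM per kb in WT and 256 ± 27.9 in URE. The gap between *Car2* and *Nfe2* exceeded the spread over samples in LSKs, whereas in WT GMPs the levels of *Car2* (161 ± 52.9), *Car1* (158 ± 78.0), *Nfe2* (114 ± 19.5) and *Pf4* (111 ± 55.1 CPM per kb) overlapped. In WT LSKs *Hbb-bt*, at 56.7 ± 41.1 (SD, n = 4) CPM per kb, had rank 3 with widely spread libraries. Other members that mark late red cells had few counts. *Alas2*, the first enzyme of red cell haem synthesis, had 9 to 57 counts per library, *Slc4a1*, the anion exchanger band 3, had 0 counts in 11 of the 16 libraries and at most 27, and the erythrocyte skeleton genes *Sptb* and *Ank1* had at most 83 and 85. *Gp1bb* had at most 13 counts, of bases that mostly overlap a neighbouring gene. *Slc4a1*, *Gp1bb* and *Gp6* did not pass the filter on low counts in any comparison, while DESeq2 and edgeR without the filter called *Slc4a1* and *Gp1bb* higher in GMPs than in LSKs of WT mice.

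In LSKs, 4 members rose and 1 fell with loss of the URE. Higher were the platelet genes *Itga2b* (3.67-fold), *F2r* (4.18-fold) and *Nfe2* (1.53-fold) and the erythroid gene *Hemgn* (2.77-fold), whose product hemogen acts in red cell precursors. Lower was *Hbb-bt* (23.2-fold). Of the 30 members tested, 4 (against 2.38% of all 15154 genes tested) were called higher and 1 (against 3.76%) lower, with calls made where the adjusted p was below 0.05 and the fold change exceeded 1.5. In sorted bulk cells, more cells of a type and more RNA per cell cannot be told apart.

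*Itga2b*, the alpha chain of the fibrinogen receptor (CD41), had 37.9, 26.2, 33.7 and 48.5 CPM in WT LSK replicates 1 to 4 and 131, 49.6, 233 and 135 CPM in URE LSKs (log2 fold change 1.88 ± 0.41 SE, edgeR adjusted p = 0.026). The groups did not overlap, but URE replicate 2 lay just above the highest WT value. The beta chain *Itgb3* had 18.3, 8.79, 3.01 and 10.7 CPM in WT and 41.03, 9.68, 56.7 and 50.8 CPM in URE LSKs, with a log2 difference of similar size that missed the threshold (log2 fold change 1.93 ± 0.61 SE, edgeR adjusted p = 0.118), although DESeq2 called it (adjusted p = 0.0147). Here the groups overlapped through URE replicate 2.

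*F2r*, the thrombin receptor PAR1, had 62.2, 65.5, 33.6 and 70.8 CPM in WT and 307, 273, 248 and 160.2 CPM in URE LSKs (log2 fold change 2.06 ± 0.27 SE, edgeR adjusted p = 0.00226). Every URE value was above every WT value, the lowest of them being replicate 4. *F2rl2*, the thrombin receptor PAR3, had 4.97, 6.48, 5.78 and 6.25 CPM in WT and 11.9, 9.94, 71.96 and 6.61 CPM in URE LSKs, where replicate 3 stood far above the rest (log2 fold change 2.07 ± 0.71 SE, edgeR adjusted p = 0.159). Without that library its log2 fold change was 0.66, and DESeq2 called it on all 8 libraries (adjusted p = 0.0205). The *F2r* rise was called in all 8 fits that left out a library and in the 10 other alternatives.

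*Nfe2* had 517, 511, 474 and 455 CPM in WT and 871, 735, 673 and 779 CPM in URE LSKs, without overlap (log2 fold change 0.61 ± 0.14 SE, edgeR adjusted p = 0.0359). Its fold change of 1.53 was only just past the threshold of 1.5. *Hemgn* had 29.3, 41.5, 41.6 and 31.8 CPM in WT and 105, 142, 90.3 and 71.3 CPM in URE LSKs (log2 fold change 1.47 ± 0.24 SE, edgeR adjusted p = 0.00673). All URE values of *Hemgn* exceeded all WT values, and the rise was called whichever library was left out. The calls of *Nfe2* and *Itga2b* held without URE LSK replicate 2 or 3 and were lost without URE LSK replicate 1 or 4 or any WT LSK library, with log2 fold changes of 0.55 to 0.67 for *Nfe2* and 1.49 to 2.18 for *Itga2b* and edgeR adjusted p-values of up to 0.131 and 0.085. Both missed the threshold with the level of Y-linked genes as covariate, at log2 fold changes of 0.72 for *Nfe2* (adjusted p = 0.066) and 1.71 for *Itga2b* (0.11), and in replicates 2 and 3 alone, at 0.49 (0.687) and 2.198 (0.0711). *Nfe2* also missed it without the filter on low counts, at 0.62 (0.0863).

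*Hbb-bt* had 11.4, 36.8, 31.4 and 79.9 CPM in WT and 1.52, 0.530, 3.75 and 1.17 CPM in URE LSKs (log2 fold change -4.54 ± 0.74 SE, edgeR adjusted p = 0.00638). The groups were far apart, and the WT libraries themselves spread over a wide range. Its copy *Hbb-bs* had 1.44, 6.51, 4.80 and 7.70 CPM in WT and 5.62, 1.89, 33.5 and 5.90 CPM in URE LSKs (log2 fold change 1.18 ± 0.83 SE, edgeR adjusted p = 0.639), which turned to -0.22 without URE replicate 3. Of the counts of the pair, *Hbb-bt* held 84.9% to 91.2% in WT LSKs, 46.4% to 47.3% in WT GMPs, 10.1% to 21.9% in URE LSKs and 9.38% to 23.8% in URE GMPs. With the pair summed, the log2 fold change in LSKs was -1.76 ± 0.82 (SE) and the call was lost (edgeR adjusted p = 0.355). In LSKs the split thus did not overlap between genotypes, whereas a change of total beta globin was not called. Whether the reads of the pair were assigned to the right copy was not tested. The 23.2-fold value is thus that of 1 copy as the table splits the pair, and the beta globin alleles of these mice were not analysed here. The summed alpha pair had a log2 fold change of 2.36 ± 0.77 (SE, edgeR adjusted p = 0.134), with *Hba-a1* at 1.31–2.99 CPM in WT and 4.25, 2.155, 35.6 and 6.52 CPM in URE LSKs and *Hba-a2* at 1.86–5.30 and 9.36, 3.84, 57.1 and 12.5 CPM. In all 8 libraries the log2 fold changes were 2.29 for *Hba-a1* and 2.41 for *Hba-a2* (edgeR adjusted p = 0.178 and 0.121). The alpha genes were highest in URE replicate 3, without which their log2 fold changes were 0.79 and 1.12 (edgeR adjusted p = 0.449 and 0.26).

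**Figure D1:**
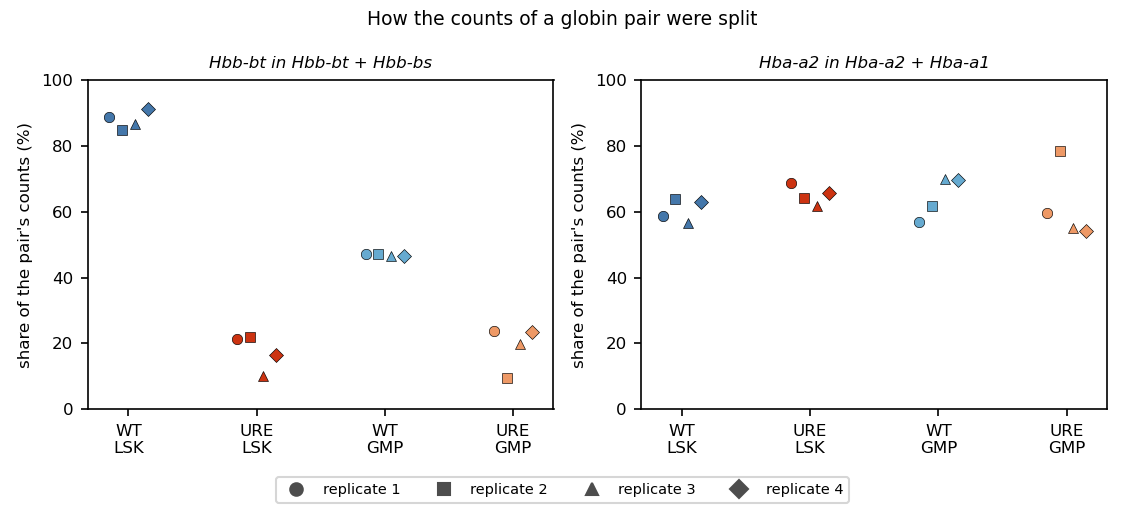
Share of the counts of a globin pair (y axis, %) that the deposited table gives to *Hbb-bt* (left) and *Hba-a2* (right), with 1 point per library, colours for the 4 groups and symbols for the replicate number. The *Hbb-bt* share lies between 84.9% and 91.2% in WT LSKs and at most at 23.8% in the URE groups, while the *Hba-a2* share lies between 54.2% and 78.6% in all groups.

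The other red cell members did not pass the edgeR test in LSKs, while DESeq2 called *Hba-a1* (adjusted p = 0.0216), *Hba-a2* (0.00773) and *Car2* (0.0145) higher and *Car1* (0.0462) lower. *Car1*, an early red cell carbonic anhydrase, had 20.99, 21.6, 17.5 and 22.2 CPM in WT and 5.46, 7.03, 17.6 and 9.03 CPM in URE LSKs (log2 fold change -1.10 ± 0.35 SE, edgeR adjusted p = 0.126). With the replicate number as a block, *Car1* was called lower (log2 fold change -1.25 ± 0.32 SE, adjusted p = 0.0476) and *Car2* higher (log2 fold change 0.73 ± 0.16 SE, adjusted p = 0.0246). *Car2* had 1544, 1158, 1103 and 1723 CPM in WT and 2607, 2183, 2169.9 and 2250.4 CPM in URE LSKs, so that its groups did not overlap. With the block, 5 members were called higher (3.83% of all genes) and 2 lower (5.62%). *Klf1* had 4.39–7.25 CPM in WT and 2.03–4.85 in URE LSKs (log2 fold change -0.57 ± 0.34 SE, edgeR adjusted p = 0.537), *Epor* 1.68–5.44 and 3.15–5.65, *Ermap*, an erythroblast membrane protein, 2.23–5.32 and 1.09–5.69, and *Rhd*, a blood group protein, 1.01–2.30 and 0.273–3.03. The ranges of these genes overlapped between genotypes. The water channel *Aqp1* (5.86–19.3 against 4.18–9.49 CPM), *Tfrc* (13.2–22.1 against 14.5–24.3 CPM) and the urea channel *Slc14a1* (53.3–104 against 74.3–116 CPM) overlapped as well. The median log2 fold change over the 16 red cell members tested was 0.10, against 0.0009 over all genes tested, and -0.12 without URE LSK replicate 3.

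Replicate 3 of the URE LSKs had the highest level of the 8 LSK libraries in 13 of the 16 platelet members and in 8 of the 18 red cell members. *Ppbp*, the chemokine CXCL7 of platelet granules, had 355 CPM there, 0.0780–0.133 CPM in the other URE LSKs and 1.60, 2.92, 3.71 and 1.53 CPM in WT LSKs. *Gp6*, the collagen receptor of platelets, had 31.1 CPM in that library and 0 counts in each of the other 7 LSK libraries. Neither gene reached such a level in another LSK library, and a count of 0 allows up to 3 counts.

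The same library had 76.6 CPM of *Pf4* (2.55–7.72 in the other URE LSKs), 68.7 of *Gp1ba* (8.35–13.5), 63.3 of *Vwf* (4.18–13.3), 181 of *Thbs1* (4.33–14.3), 27.3 of the platelet receptor *Treml1* (1.76–2.73) and 18.7 of *Gp9* (2.25–3.70). It was also highest in 17 of 26 further platelet genes, among them *Tubb1*, the platelet beta tubulin, with 128 CPM against 1.46–3.003 in the other URE LSKs, *Clec1b* with 38.8 against 0.0663–0.429, and *P2ry12* with 27.9 against 0.133–0.251. Of 29 further red cell genes, 25 had counts in LSKs and 3 of them were highest there. The summed level of the 26 platelet genes was 4918 CPM in this library, 3128–3517 CPM in the other URE LSKs and 1703–2296 CPM in WT LSKs. Even without it, the sums of the URE libraries lay above those of WT. Stem and LSK markers summed to 3013 CPM in it, to 2946–3733 CPM in the other URE LSKs and to 3598–5917 CPM in WT LSKs. The 10 markers did not move as 1, with 4 positive and 6 negative log2 fold changes in URE LSKs. Of these markers, 2 were called lower (3.76% of all genes) and none higher (2.38%). Their part in the levels of the platelet members was not tested. The sort gated for c-Kit, which platelets lack, and whether any were carried along with sorted cells was not tested. LSKs were also gated as Sca-1+, so of the progenitors of megakaryocytes only those with both c-Kit and Sca-1 would pass. The part of megakaryocytic cells or of platelets in these levels was not tested.

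**Figure D2:**
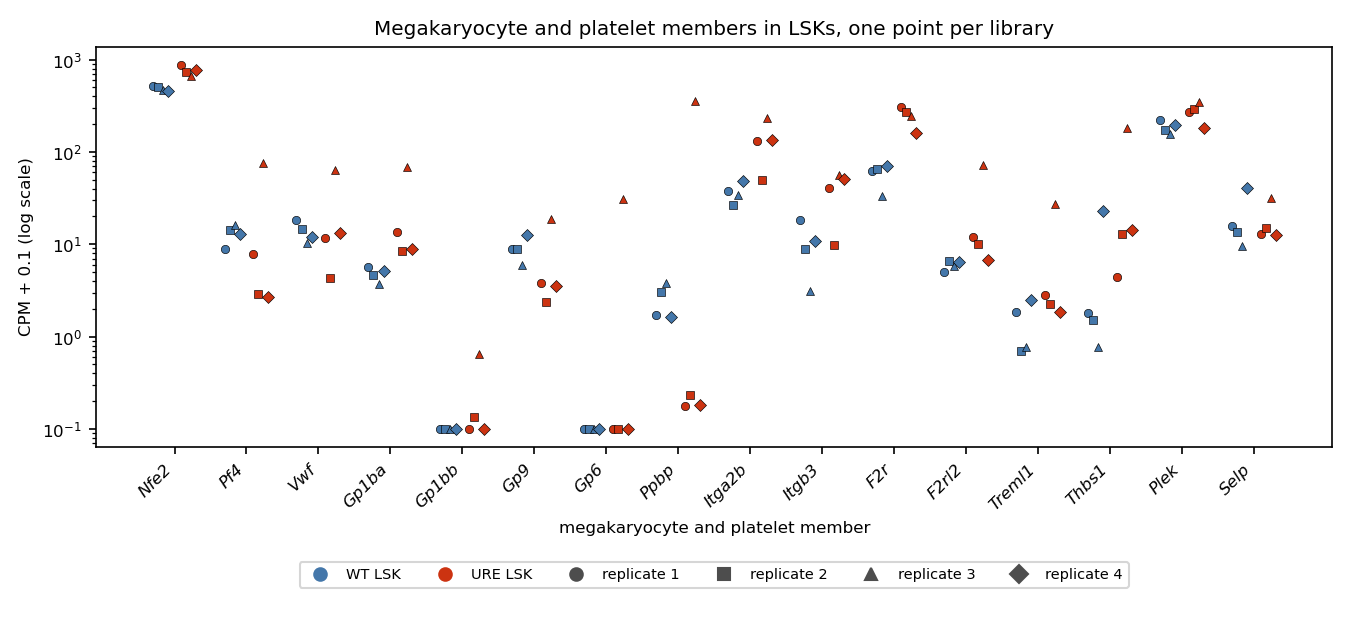
Levels of the 16 megakaryocyte and platelet members (x axis) in LSKs as CPM + 0.1 on a log axis, with 1 point per library, blue for WT, red for URE and symbols for the replicate number. URE LSK replicate 3 (red triangle) reaches 355 CPM of *Ppbp* while the other URE LSKs have at most 0.133 CPM, and *F2r* is higher in all 4 URE libraries than in any WT library.

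The platelet members as a list had a median log2 fold change of 1.90 in LSKs. Of the 14 tested, 12 had a positive value, against 7590 of all 15154 genes tested. Among the 12, *Pf4*, *Vwf* and *Ppbp* turned negative without URE LSK replicate 3. With the replicate block the median over the list was 0.96, and without URE LSK replicate 3 it was 0.66. Over all members, red cell genes included, the calls without that library were 4 higher (2.28% of all genes) and 4 lower (3.93%). Of these, 3 higher and 2 lower were platelet members. Added were *Car1* (log2 fold change -1.55 ± 0.24 SE, adjusted p = 0.00859), *Gp9* (log2 fold change -1.54 ± 0.34 SE, adjusted p = 0.0325) and *Ppbp* (log2 fold change -4.59 ± 0.58 SE, adjusted p = 0.00334). *Ppbp* thus turned from a log2 fold change of 5.16 ± 2.32 (SE, edgeR adjusted p = 0.331) in all 8 libraries to a negative value. In counts, *Ppbp* was higher in each WT LSK library than in URE replicates 1, 2 and 4. *Pf4* also had fewer CPM in these 3 URE libraries than in any WT LSK library (8.68–16.1 CPM), and *Gp9* likewise (5.86–12.7 CPM). In all 8 libraries the log2 fold change of *Gp9* was -0.38 ± 0.63 (SE, edgeR adjusted p = 0.92). That of *Pf4* was 0.76 ± 0.98 (SE, adjusted p = 0.87) with and -1.61 ± 0.45 (adjusted p = 0.0823) without URE replicate 3, and that of *Treml1* 2.62 ± 0.97 (adjusted p = 0.206) with and 0.68 ± 0.53 (adjusted p = 0.627) without it. In fits of replicates 1 and 4 alone, the platelet median was 0.08, and in fits of replicates 2 and 3 alone it was 2.29. The fit of replicates 2 and 3 also called *Treml1* higher (log2 fold change 4.49, edgeR adjusted p = 0.0365), its only call among 10 other alternatives.

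**Figure D3:**
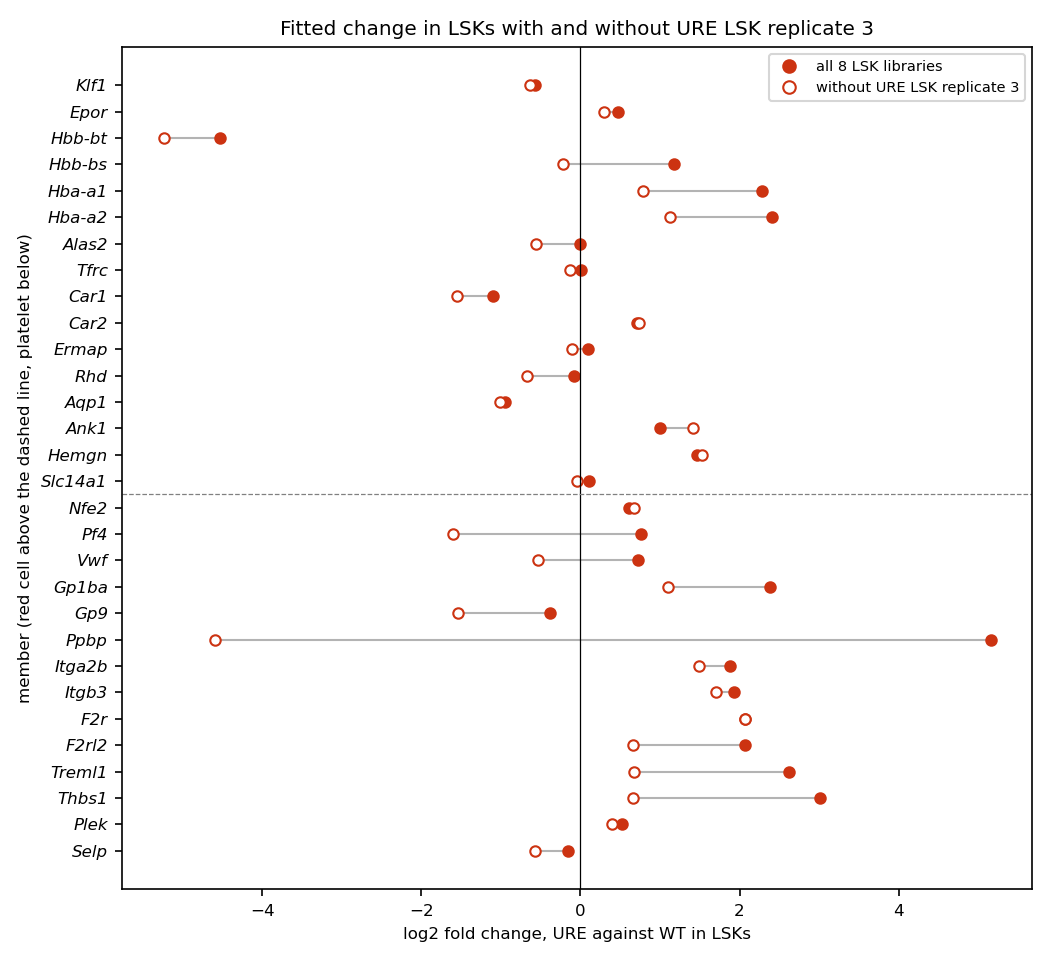
Log2 fold change (x axis) between URE and WT LSKs of the members tested (y axis), with filled points for the fit of all 8 libraries and open points for the fit without URE LSK replicate 3. *Itga2b*, *F2r*, *Nfe2* and *Hemgn* stay positive while *Ppbp* moves from 5.16 to -4.59.

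*Vwf* had 18.1, 14.5, 10.3 and 12.01 CPM in WT and 11.6, 4.18, 63.3 and 13.3 CPM in URE LSKs (log2 fold change 0.72 ± 0.69 SE, edgeR adjusted p = 0.793). The positive sign rested on URE replicate 3, without which the log2 fold change was -0.54 ± 0.40 (SE, edgeR adjusted p = 0.602). *Gp1ba* had 5.51, 4.56, 3.59 and 5.08 CPM in WT and 13.5, 8.35, 68.7 and 8.87 CPM in URE LSKs, where every URE value was above every WT value without passing the test (log2 fold change 2.38 ± 0.68 SE, edgeR adjusted p = 0.083). Without URE replicate 3 its log2 fold change was 1.10 ± 0.28 (SE, edgeR adjusted p = 0.0581), and it was called in the joint fit of 16 libraries (adjusted p = 0.0379) and without the filter on low counts (0.0494). *Plek*, the platelet protein pleckstrin, which other blood cells also make, had 156–220.2 and 181–344 CPM (log2 fold change 0.52 ± 0.21 SE, edgeR adjusted p = 0.263). *Selp*, the adhesion molecule P-selectin, had 15.8, 13.6, 9.37 and 40.1 CPM in WT and 12.9, 15.1, 31.4 and 12.4 CPM in URE LSKs (log2 fold change -0.15 ± 0.48 SE, edgeR adjusted p = 0.965), with overlapping groups. Endothelial cells also make *Selp* and *Vwf*. Of the 7 endothelial markers, *Pecam1*, *Tie1* and *Tek* are also made by blood progenitors. The 7 summed to 232–409 CPM in WT LSKs, 192–293 in URE LSKs, 141–239 in WT GMPs and 238–424 in URE GMPs. Most markers did not share the higher sum of URE GMPs, as 4 of 5 tested there had a negative log2 fold change. In GMPs 1 was called higher in URE (4.67% of all genes) and 1 lower (3.63%). *Cdh5* was at most at 0.772 and *Kdr* at most at 1.69 CPM in any library. The part of endothelial cells in the levels of *Selp* and *Vwf* was not tested.

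Further genes of the pathway were listed with earlier results of these data known, so their counts are no independent check. Of the 24 platelet genes tested among them, 6 rose in URE LSKs (2.38% of all genes) and none fell (3.76%). They were *Itga2* (1.82), a chain of the collagen receptor, *Rab27b* (2.08), needed for platelet granules, *Mmrn1* (2.03), *Gng11* (1.26), *Nrgn* (1.01) and *Serpine2* (2.27, all log2 fold changes). Their median over the 24 was 1.08, against 0.0009 over all genes. Without URE LSK replicate 3 the median was 0.44, the same 6 were called higher (2.28% of all genes) and *P2ry12* was called lower (3.93%). *Mmrn1*, the factor V carrier multimerin, had 221, 260.3, 247 and 237 CPM in WT and 928, 948, 1419 and 736 CPM in URE LSKs (log2 fold change 2.03 ± 0.22 SE, edgeR adjusted p = 0.00067), without overlap and without resting on replicate 3. *Gp5*, a further part of the von Willebrand factor receptor, had 0.160–0.820 CPM in WT and 0.265–1.73 CPM in URE LSKs and did not pass the test.

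Of 24 further red cell genes tested in LSKs, 1 rose and 2 fell, against the same shares of all genes. *Trim58* rose (1.82), *Rhag*, which pairs with *Rhd* in the membrane, fell (-2.71) and the iron carrier *Slc25a37* fell (-0.86, a call lost without URE LSK replicate 3), and none of 8 genes of haem synthesis passed. Among 19 transcription factors of these lineages, *Gfi1b* was higher, with 28.2, 49.1, 35.6 and 48.2 CPM in WT and 63.96, 98.4, 145 and 98.9 CPM in URE LSKs (log2 fold change 1.31 ± 0.28 SE, edgeR adjusted p = 0.0221). It is required in both lineages. *Sox6* (-2.69), *Bcl11a* (-0.68, a call lost without URE LSK replicate 3) and *Spi1* itself fell. *Gata1* had 6.47–13.7 CPM in WT and 3.08–13.8 in URE LSKs (log2 fold change -0.38 ± 0.48 SE, edgeR adjusted p = 0.872), and *Gata2* 31.9–132 and 20.5–163 (log2 fold change -0.06 ± 0.68 SE, edgeR adjusted p = 0.988), neither past the threshold. Of the basophil and mast cell markers, 2 of 6 tested rose in URE LSKs (2.38% of all genes), *Mcpt8* (2.11) and *Cpa3* (1.89). The summed level of the 7 genes was 23.4–47.3 CPM in WT and 103–210.1 CPM in URE LSKs. The part of these cells in the rise of *Gfi1b*, which they also make, was not tested.

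In GMPs, loss of the URE changed 2 of the 31 members tested. *Thbs1*, which encodes thrombospondin 1, was 43.8-fold higher and *Selp* 6.82-fold lower, and no red cell member passed in edgeR. These are 1 higher (4.67% of 13829 genes) and 1 lower (3.63%).

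*Thbs1* had 0.953, 1.12, 0.587 and 1.45 CPM in WT GMPs and 14.2, 71.6, 30.9 and 66.2 CPM in URE GMPs (log2 fold change 5.45 ± 0.57 SE, edgeR adjusted p = 0.000824). The lowest URE library was far above the highest WT library, and the call held in all 8 fits that left out a library and in 10 other alternatives. *Selp* had 14.3, 9.51, 7.63 and 39.9 CPM in WT and 1.83, 1.51, 5.38 and 1.58 CPM in URE GMPs (log2 fold change -2.77 ± 0.65 SE, edgeR adjusted p = 0.0303). The groups of *Selp* did not overlap, but its call was lost without URE GMP replicate 1, 2 or 4 or WT GMP replicate 4 (edgeR adjusted p of up to 0.0974), and in replicates 2 and 3 alone its log2 fold change was -1.31. In LSKs, *Thbs1* had 1.70, 1.41, 0.664 and 22.6 CPM in WT and 4.33, 12.7, 181 and 14.3 CPM in URE (log2 fold change 3.01 ± 1.41 SE, edgeR adjusted p = 0.36), where WT replicate 4 and URE replicate 3 were high and the groups overlapped. Without the latter its log2 fold change was 0.67 ± 1.11 (SE). In replicates 2 and 3 alone *Thbs1* was called higher in LSKs (log2 fold change 6.49, edgeR adjusted p = 0.00575). That was its only call in LSKs among 10 other alternatives, in which its log2 fold change went down to -0.39. Monocytes and macrophages also make *Thbs1*. The summed level of 6 monocyte markers was 759–1121 CPM in WT GMPs and 406, 1442, 366 and 745 CPM in URE GMP replicates 1 to 4. Of the 6, 4 were called lower in URE (3.63% of all genes). GMPs were sorted as c-Kit+ cells, with Gr1 among the lineage antibodies. The part of monocytic cells in the level of *Thbs1* was not tested.

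*Hemgn* had 16.7, 25.5, 13.6 and 13.4 CPM in WT and 49.9, 19.7, 69.5 and 31.9 CPM in URE GMPs (log2 fold change 1.31 ± 0.40 SE, edgeR adjusted p = 0.0845), and *Nfe2* had 335, 362, 262 and 400.3 CPM in WT and 650.4, 395, 597 and 503 CPM in URE GMPs (log2 fold change 0.66 ± 0.20 SE, edgeR adjusted p = 0.0842). Neither was called in GMPs by edgeR on the 8 GMP libraries, whereas the joint fit of 16 libraries called *Hemgn* (adjusted p = 0.0218) and *Nfe2* (0.0188) and DESeq2 called *Hemgn* (0.0246). In LSKs their log2 fold changes were 1.47 and 0.61. *Itga2b* had 129, 76.4, 45.8 and 52.3 CPM in WT and 150.5, 38.3, 111 and 109 CPM in URE GMPs (log2 fold change 0.43 ± 0.44 SE, edgeR adjusted p = 0.682) and *F2r* had 71.03, 77.7, 12.7 and 37.2 CPM in WT and 123, 39.3, 111 and 93.01 CPM in URE GMPs (log2 fold change 0.89 ± 0.54 SE, edgeR adjusted p = 0.415). The ranges of both overlapped between genotypes. With the replicate block, *Tfrc* was called higher in GMPs (log2 fold change 0.62 ± 0.15 SE, adjusted p = 0.0274), for 2 higher (9.52% of all genes) and 1 lower (6.82%). Its values were 80.4, 111, 59.7 and 78.9 CPM in WT and 120.0, 196, 68.7 and 147 CPM in URE GMPs.

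Replicate 2 of the URE GMPs had the lowest level of the 8 GMP libraries in 11 of 18 red cell members. It had 15.7 CPM of *Klf1* (40.4–96.1 in the other URE GMPs), 6.95 of *Ermap* (44.6–82.9) and 32.96 of *Car1* (157–339). Its GMP and neutrophil markers summed to 165038 CPM, against 75868–112224 CPM in the other URE GMPs and 55802–71259.9 CPM in WT GMPs. Among WT GMPs, replicate 3 was lowest in 11 of the 18 red cell members. Without URE GMP replicate 2, 3 members were called higher, *Thbs1*, *Hemgn* and *Nfe2* (4% of all genes), and none lower (3.57%). The part of the makeup of the sorted cells in these values was not tested. Against 4.67% of all genes higher and 3.63% lower in GMPs, 4 of 22 further platelet genes rose (*Cd9*, *Mmrn1*, *Gng11* and *Serpine2*, by 1.13 to 2.55 in log2 fold change), 1 of 24 red cell genes fell (*Slc25a37*, -0.80), and of 8 haem synthesis genes *Fech*, which inserts the iron, rose (0.73).

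Between the cell types, 6 of the red cell members were higher in GMPs than in LSKs of both genotypes. In WT mice, *Klf1* (9.94-fold), *Tfrc* (4.40-fold), *Car1* (9.49-fold), *Ermap* (13.8-fold), *Rhd* (9.65-fold) and *Aqp1* (5.23-fold) were higher in GMPs, and *Hbb-bt*, *Car2* and *Hemgn* were lower. Of the platelet members, *Pf4*, *Itga2b* and *F2rl2* were higher and *Gp9* was lower. These are 9 of 30 members higher (11.5% of 14767 genes) and 4 lower (15.8%). In URE mice, 6 of 30 were higher (9.2% of 14395 genes) and 4 lower (12.6%), and the 6 were the red cell members just listed. Lower in GMPs of URE mice were *Car2*, *Hemgn*, *F2r* and *Selp*.

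*Klf1* had 4.39, 5.24, 4.69 and 7.25 CPM in WT LSKs and 51.7, 79.01, 19.8 and 65.8 CPM in WT GMPs (log2 fold change 3.31 ± 0.42 SE, edgeR adjusted p = 0.000574). In URE mice it had 2.03, 3.71, 4.21 and 4.85 CPM in LSKs and 74.9, 15.7, 96.1 and 40.4 CPM in GMPs (log2 fold change 3.91 ± 0.57 SE, edgeR adjusted p = 0.00152). No GMP library fell into the range of the LSKs in either genotype. *Ermap* had 3.17, 2.72, 2.23 and 5.32 CPM in WT LSKs and 70.4, 56.04, 25.8 and 34.5 CPM in WT GMPs (log2 fold change 3.79 ± 0.41 SE, edgeR adjusted p = 0.000293), and 1.09, 2.72, 5.06 and 5.69 CPM in LSKs and 82.9, 6.95, 67.7 and 44.6 CPM in GMPs of URE mice (log2 fold change 3.76 ± 0.77 SE, edgeR adjusted p = 0.00756). URE GMP replicate 2 was close to the LSKs here.

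*Rhd* had 1.09, 1.81, 2.30 and 1.01 CPM in WT LSKs and 18.97, 18.98, 6.21 and 16.5 in WT GMPs (log2 fold change 3.27 ± 0.44 SE, edgeR adjusted p = 0.000884), and 0.273, 0.696, 3.03 and 2.05 CPM in LSKs and 29.1, 2.51, 16.04 and 11.3 CPM in GMPs of URE mice (log2 fold change 3.25 ± 0.86 SE, edgeR adjusted p = 0.0246). In URE mice, GMP replicate 2 lay within the LSK range, and the *Rhd* call was lost without URE LSK replicate 2 or URE GMP replicate 1. *Car1* rose from 17.5–22.2 to 112–318 CPM in WT (log2 fold change 3.25 ± 0.35 SE, edgeR adjusted p = 0.000264) and from 5.46–17.6 to 32.96–339 CPM in URE mice (log2 fold change 4.27 ± 0.70 SE, edgeR adjusted p = 0.0027). *Aqp1* rose from 5.86–19.3 to 12.02–109 CPM in WT (log2 fold change 2.39 ± 0.61 SE, edgeR adjusted p = 0.0171), where replicate 3 was low in both cell types and the groups overlapped, and from 4.18–9.49 to 19.7–141 CPM in URE mice (log2 fold change 3.73 ± 0.57 SE, edgeR adjusted p = 0.00192). The transferrin receptor *Tfrc*, which dividing cells of any kind use, rose from 13.2–22.1 to 59.7–111 CPM in WT (log2 fold change 2.14 ± 0.24 SE, edgeR adjusted p = 0.000373) and from 14.5–24.3 to 68.7–196 CPM in URE mice (log2 fold change 2.75 ± 0.32 SE, edgeR adjusted p = 0.000507).

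Carbonic anhydrase 2 went the other way from carbonic anhydrase 1. *Car2* fell from 1103–1723 CPM in LSKs to 206–491 CPM in GMPs of WT (log2 fold change -1.84 ± 0.28 SE, edgeR adjusted p = 0.00164) and from 2169.9–2607 to 168–1026 CPM in URE mice (log2 fold change -1.75 ± 0.47 SE, edgeR adjusted p = 0.0257). *Hemgn* fell as well, from 29.3–41.6 to 13.4–25.5 CPM in WT (log2 fold change -1.07 ± 0.26 SE, edgeR adjusted p = 0.0133) and from 71.3–142 to 19.7–69.5 CPM in URE mice (log2 fold change -1.28 ± 0.38 SE, edgeR adjusted p = 0.0382). The *Hemgn* call in URE mice was lost without URE LSK replicate 1, 2 or 3 (edgeR adjusted p = 0.0637 without replicate 3) or URE GMP replicate 1, 2 or 4, and that of *Car2* without URE LSK replicate 1 or 4 or URE GMP replicate 4. *Hbb-bt* fell from 11.4–79.9 to 1.52–3.99 CPM in WT mice (log2 fold change -4.03 ± 0.60 SE, edgeR adjusted p = 0.00143), and the summed beta pair fell too (log2 fold change -3.11 ± 0.57, SE, edgeR adjusted p = 0.0036). In URE mice, *Hbb-bt* had 0.530–3.75 CPM in LSKs and 0.157–2.05 in GMPs (log2 fold change -0.72 ± 0.78 SE, edgeR adjusted p = 0.558), and the summed pair had a log2 fold change of -1.39 ± 0.84 (SE, edgeR adjusted p = 0.279).

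**Figure D4:**
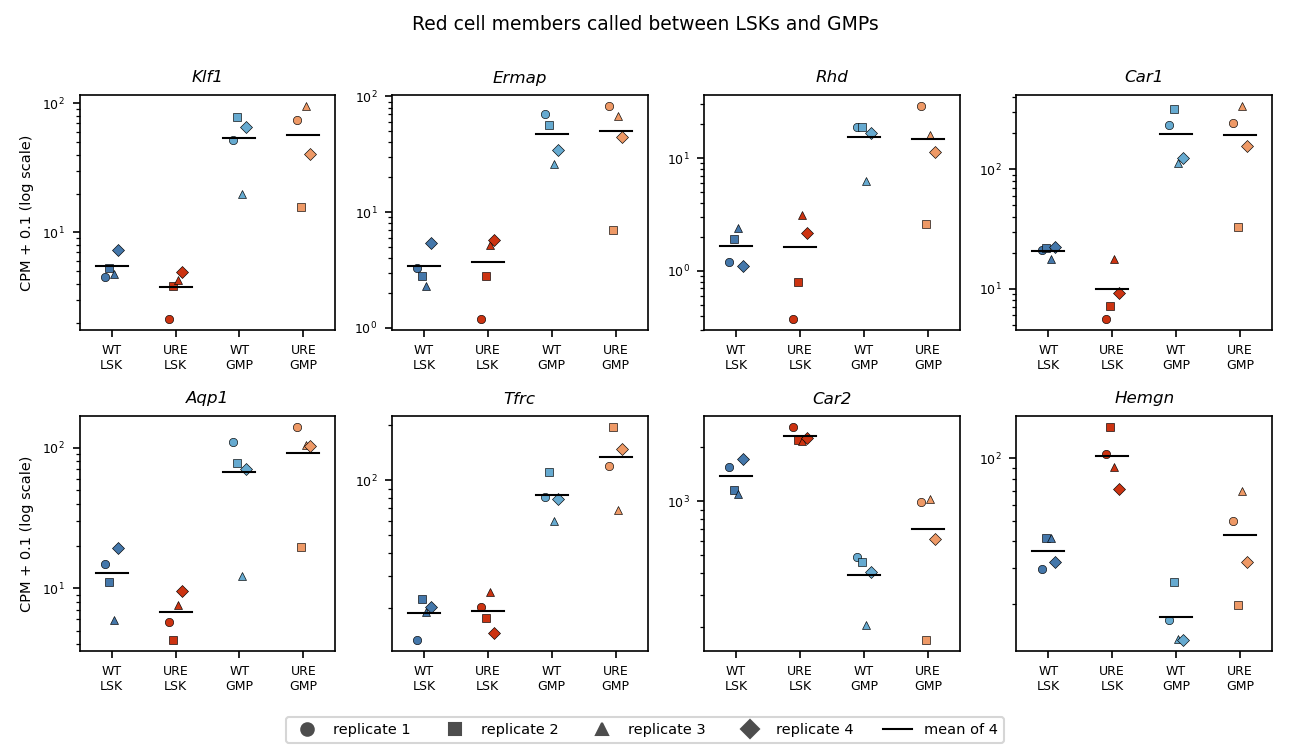
Levels of 8 red cell members in the 4 groups (x axis) as CPM + 0.1 on a log axis, with 1 point per library, symbols for the replicate number and a bar at the mean of 4. *Klf1*, *Ermap*, *Rhd*, *Car1*, *Aqp1* and *Tfrc* are higher in GMPs of both genotypes, with URE GMP replicate 2 low in all but *Tfrc*, and *Car2* and *Hemgn* are lower.

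*Pf4* had 8.68, 14.3, 16.1 and 12.8 CPM in WT LSKs and 59.8, 122, 103 and 35.02 CPM in WT GMPs (log2 fold change 2.62 ± 0.40 SE, edgeR adjusted p = 0.00154). In URE mice it had 7.72, 2.78, 76.6 and 2.55 CPM in LSKs and 29.7, 33.9, 118 and 33.8 CPM in GMPs (log2 fold change 1.22 ± 1.06 SE, edgeR adjusted p = 0.452), and without URE LSK replicate 3 the rise was called (log2 fold change 3.65 ± 0.69 SE, adjusted p = 0.0085). *Ppbp*, which lies next to *Pf4* on chromosome 5 (*Ppbp* at chr5:90768518-90770063, *Pf4* at chr5:90772435-90773383), had 1.60, 2.92, 3.71 and 1.53 CPM in WT LSKs and 0.650, 2.202, 1.12 and 0.674 CPM in WT GMPs (log2 fold change -1.07 ± 0.49 SE, edgeR adjusted p = 0.138). The neighbours differed in the sign of their change in WT mice. *F2rl2* rose from 4.97–6.48 to 11.1–29.6 CPM in WT (log2 fold change 1.62 ± 0.31 SE, edgeR adjusted p = 0.00476), *Itga2b* from 26.2–48.5 to 45.8–129 CPM (log2 fold change 1.04 ± 0.34 SE, edgeR adjusted p = 0.0479), and *Gp9* fell from 5.86–12.7 to 2.40–5.94 CPM (log2 fold change -1.18 ± 0.35 SE, edgeR adjusted p = 0.0322). In WT mice the call of *Itga2b* was lost without WT GMP replicate 1 or 2 or any WT LSK library, and that of *Gp9* without WT GMP replicate 1, 3 or 4 or WT LSK replicate 1, 2 or 4. *F2r* fell from 160.2–307 to 39.3–123 CPM in URE mice (log2 fold change -1.46 ± 0.35 SE, edgeR adjusted p = 0.0154), where all GMP values were below all LSK values.

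*Selp* fell from 12.4–31.4 CPM in LSKs to 1.51–5.38 CPM in GMPs of URE mice (log2 fold change -2.83 ± 0.54 SE, edgeR adjusted p = 0.00531), without overlap, whereas in WT mice it had 9.37–40.1 and 7.63–39.9 CPM (log2 fold change -0.16 ± 0.60 SE, edgeR adjusted p = 0.885). *Thbs1* had a log2 fold change of -0.28 ± 1.03 (SE) between GMPs and LSKs of URE mice, which turned to 2.13 ± 0.63 (SE, edgeR adjusted p = 0.048) without URE LSK replicate 3. With the replicate block, 11 members were higher (15.8% of all genes) and 5 lower (25.1%) in WT mice, and 8 higher (13.3%) and 10 lower (18.6%) in URE mice. In WT mice the block added *Epor* (log2 fold change 1.07 ± 0.35 SE, adjusted p = 0.0308), *Treml1* (log2 fold change 1.55 ± 0.46 SE, adjusted p = 0.0207) and *Ppbp* (log2 fold change -1.14 ± 0.31 SE, adjusted p = 0.0146). In URE mice it added *Sptb* and *Pf4* as higher, at log2 fold changes of 3.03 and 2.38, and *Hbb-bs*, *Hba-a1*, *Hba-a2*, *Vwf*, *Gp1ba* and *Plek* as lower, at -1.72 to -0.95. Each of those 6 genes was highest in replicate 3 among the URE LSKs. Without the block, the summed alpha pair had a log2 fold change of -2.05 ± 0.87 (SE, edgeR adjusted p = 0.127) in this comparison, and the pairs were not fitted with the block.

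**Figure D5:**
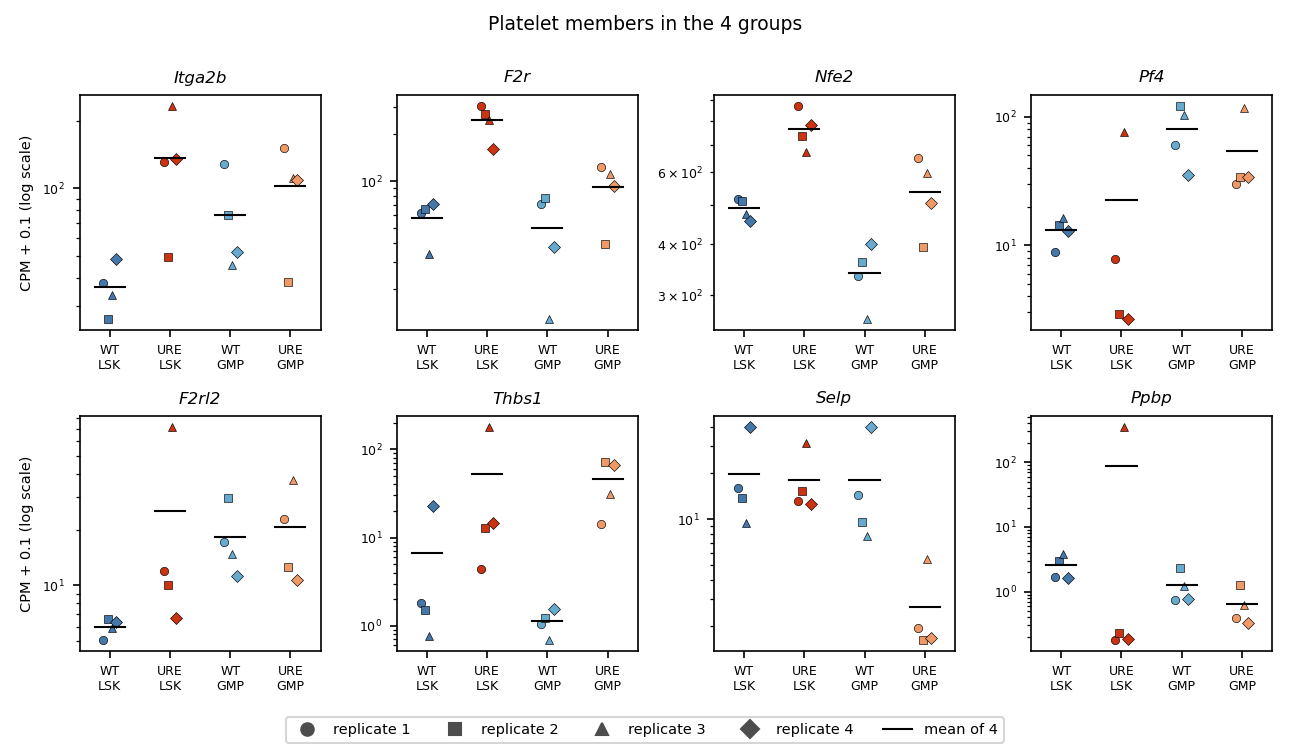
Levels of 8 platelet members in the 4 groups (x axis) as CPM + 0.1 on a log axis, with 1 point per library, symbols for the replicate number and a bar at the mean of 4. *Thbs1* has at most 1.45 CPM in WT GMPs and at least 14.2 CPM in URE GMPs, and *Ppbp* has 355 CPM in URE LSK replicate 3 alone.

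Among further red cell genes, 6 of 24 were higher in GMPs than in LSKs of WT mice (11.5% of all genes) and 7 of 24 in URE mice (9.2%), including *Kel*, a blood group protein, with log2 fold changes of 3.58 and 3.56. Lower were 1 (15.8% of all genes) and 2 (12.6%) of the 24. Of the 8 haem synthesis genes, 2 and 3 were higher and none lower. *Gata1* had 6.47, 7.69, 6.76 and 13.7 CPM in WT LSKs and 61.02, 63.2, 24.9 and 51.5 CPM in WT GMPs (log2 fold change 2.52 ± 0.37 SE, edgeR adjusted p = 0.00122), and 3.08, 4.08, 13.8 and 6.11 CPM in LSKs and 69.2, 18.3, 81.96 and 47.97 CPM in GMPs of URE mice (log2 fold change 2.97 ± 0.59 SE, edgeR adjusted p = 0.0069). GMPs were above LSKs in every library. Against the same shares, of the platelet genes 10 of 24 in WT and 10 of 20 in URE mice were lower in GMPs and 4 and 1 were higher. GMPs also held basophil and mast cell markers, which sum to 629–1236 CPM in WT and 849–2340.2 CPM in URE GMPs, and basophil precursors make *Gata1* and *Gata2* as well. Their part in the levels of *Gata1* was not tested.

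An interaction term, fitted to the 16 libraries together, asked whether the deletion acted differently in the LSKs and the GMPs. Of the 31 members tested, none passed in edgeR, against 0.866% of 15935 genes with a positive and 0.351% with a negative term. An unadjusted p under 0.05 was found for 8 members, against 1853 of the 15935 genes, and DESeq2 called 2 (2.02% of its 18902 genes with a positive and 1.22% with a negative term), *Hbb-bt* (log2 3.28, adjusted p = 0.0239) and *Selp* (-2.68, adjusted p = 0.0383). In edgeR, the terms were 3.34 ± 0.99 (SE, adjusted p = 0.13) for *Hbb-bt*, 1.75 ± 1.06 (SE, adjusted p = 0.602) for the summed beta pair and -2.65 ± 0.85 (SE, adjusted p = 0.166) for *Selp*. The calls of *Itga2b*, *F2r*, *Nfe2* and *Hemgn* in LSKs and of *Thbs1* in GMPs are thus not shown to be particular to a cell type. For *Thbs1*, the term was 2.46 ± 1.61 (SE, edgeR adjusted p = 0.65), and without URE LSK replicate 3 it was 4.80 ± 1.40 (SE, edgeR adjusted p = 0.112).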

How the data were processed

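The deposited table holds estimated counts per gene, which the authors made with salmon on GRCm38 and summed per gene with tximport, as whole numbers that are not normalized. The annotation release is not given in the sources used here. Libraries were unstranded and without molecular identifiers, so depth covers counting error only. Genes were matched to GENCODE M21 (GRCm38), and motifs were counted in RefSeq promoters. Counts were fitted with edgeR 4.0.16 (R 4.3.3, TMM, filterByExpr with a minimum count of 10, quasi-likelihood test, Benjamini-Hochberg adjustment over all genes tested), separately for the 8 libraries of each comparison, with a call where the adjusted p was below 0.05 and the fold change exceeded 1.5. The SE is the absolute log2 fold change over the square root of F. The fits were tested on simulated data. Replicate libraries differed by far more than sampling noise (chi-square over its degrees of freedom of at least 32.4). In every group replicates 1 and 4 differed least, at 32.4 to 64.8, against 81.6 to 293 for the other pairs. Same-numbered libraries deviated together in all 4 comparisons (correlations of 0.32 to 0.86). Differently numbered libraries had mean correlations of -0.24 to -0.18, although the highest of them, 0.43 to 0.59, exceeded some same-numbered ones. The replicate number, taken from the titles, was therefore also used as a block. What a number shares is not given in the sources used here. Alternatives were DESeq2 1.42.0, RLE size factors, no filter, no fold threshold, summed globin pairs, a joint fit, replicates 1 and 4 or 2 and 3 alone, the level of Y-linked genes as a covariate, and leaving out each library. All 34 members are named, and further lists are given by counts. *Ahsp* was not analysed here. The members and lists were chosen with earlier results of these data known. Plots used matplotlib 3.10.9.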

Additional observations from a re-analysis of the deposited data

Results flagged for a closer look

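For each member and group of 4 libraries with at least 10 counts in a library, 128 sets in all, the gap between the highest or lowest library and the next was set against the range of the group (Dixon's criterion for 4 values). It was passed in 23 sets. Chance alone passes about 1 in 20 sets of evenly scattered values, a rate that does not hold where the other libraries are at or near 0 counts, as for *Slc4a1*, *Gp1bb*, *Gp6* and *Ppbp* in URE LSKs. Of the 23, 15 belonged to URE LSK replicate 3, which was the highest of its group in each. These were *Hbb-bs* (33.5 CPM, against 1.89 to 5.90), *Hba-a1* (35.6 CPM, against 2.155 to 6.52), *Hba-a2* (57.1 CPM, against 3.84 to 12.5), *Alas2* (2.40 CPM, against 0.669 to 0.928), *Pf4* (76.6 CPM, against 2.55 to 7.72), *Vwf* (63.3 CPM, against 4.18 to 13.3), *Gp1ba* (68.7 CPM, against 8.35 to 13.5), *Gp1bb* (0.548 CPM, against 0 to 0.0331). The others of this library were *Gp9* (18.7 CPM, against 2.25 to 3.70), *Gp6* (31.1 CPM, against 0), *Ppbp* (355 CPM, against 0.0780 to 0.133), *F2rl2* (72.0 CPM, against 6.61 to 11.9), *Treml1* (27.3 CPM, against 1.76 to 2.73), *Thbs1* (181 CPM, against 4.33 to 14.3) and *Selp* (31.4 CPM, against 12.4 to 15.1). *Hba-a1* was lowest in WT LSK replicate 1, at 1.31 CPM against 2.73 to 2.99 CPM in the other 3 libraries. *Hba-a2* was highest in WT GMP replicate 2, at 8.81 CPM against 3.08 to 3.52 CPM in the other 3 libraries. *Alas2* was highest in WT GMP replicate 3, at 1.47 CPM against 0.374 to 0.467 CPM in the other 3 libraries. *Slc4a1* was highest in URE LSK replicate 1, at 1.05 CPM against 0 CPM in the other 3 libraries. *Pf4* was highest in URE GMP replicate 3, at 118 CPM against 29.7 to 33.9 CPM in the other 3 libraries. *Itgb3* was highest in WT GMP replicate 1, at 39.2 CPM against 5.82 to 10.6 CPM in the other 3 libraries. *Thbs1* was highest in WT LSK replicate 4, at 22.6 CPM against 0.664 to 1.70 CPM in the other 3 libraries. *Selp* was highest in URE GMP replicate 3, at 5.38 CPM against 1.51 to 1.83 CPM in the other 3 libraries. What sets this library apart was not tested.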

How the results depend on the processing

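The share of all genes called moved with the setting and stands in parentheses as a percentage. In LSKs, the members called higher in URE numbered 4 (2.38% of all genes), 9 with DESeq2 (3.42%) and 2 when the level of Y-linked genes entered as covariate (1.24%), and 2 to 5 when a library was left out (1.34% to 2.28%, with 2 without URE LSK replicate 1 or 4 or any WT LSK library). The members called lower numbered 1 (3.76%), 2 with DESeq2 (4.82%), 2 with the replicate block (5.62%), 4 in replicates 1 and 4 alone (4.13%), 0 with the globin pairs summed (3.76%) and 1 to 4 when a library was left out (2.33% to 3.93%, with 4 without URE LSK replicate 3). In GMPs, the members called higher in URE numbered 1 (4.67%), 2 with DESeq2 (5.82%), with the replicate block (9.52%) and in replicates 1 and 4 alone (4.82%), 3 in the joint fit (5.5%) and 1 to 3 when a library was left out (2.76% to 4.49%, with 3 without URE GMP replicate 2), and the member called lower was lost in replicates 2 and 3 alone (0, at 0.366%) and in some fits without a library (0 to 1, at 2.24% to 3.79%, with 0 without URE GMP replicate 1, 2 or 4 or WT GMP replicate 4). Between GMPs and LSKs of WT mice, 9 members were higher (11.5%), 13 with DESeq2 (11.6%), 11 without the filter (5.73%), 7 in the joint fit (11.3%), which lost *Itga2b* and *F2rl2*, and 8 to 13 when a library was left out (8.7% to 13.2%, with 13 without WT GMP replicate 3), and 4 were lower (15.8%), 2 in replicates 2 and 3 alone (8.04%). In URE mice the higher calls fell from 6 (9.2%) to 3 in replicates 2 and 3 alone (2.47%), and the lower calls went from 4 (12.6%) to 10 with the replicate block (18.6%), 7 in the joint fit (14.2%), 0 in replicates 2 and 3 alone (3.04%) and 2 to 5 when a library was left out (8.37% to 12.2%, with 2 without URE GMP replicate 4 or URE LSK replicate 1). DESeq2 gave an interaction to 1 member in each direction (2.02% and 1.22%), where edgeR gave 0 (0.866% and 0.351%). The block changed no other member's call than those named in the report. *Ppbp* reversed in LSKs, to -4.59 without URE LSK replicate 3 and -4.23 in replicates 1 and 4 alone (leaving out a library gave -4.59 to 5.61), and *Thbs1* reversed between GMPs and LSKs of URE mice, to 2.13 without URE LSK replicate 3 (leaving out a library gave -0.62 to 2.13). Beyond leaving out that library, which holds the high values, the causes were not tested. Low counts limit *Alas2*, *Slc4a1*, *Sptb*, *Ank1*, *Gp1bb* and *Gp6*.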
